A study of Mus musculus with 14 samples.

Results

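Interferon-gamma (Ifng), 4 genes of the cytotoxic granule (Gzma, Gzmb, Prf1 and Nkg7), 2 chains of the IL-2 receptor (Il2ra and Il2rb) and 3 chains of the T cell receptor complex and its CD8 co-receptor (Cd3e, Cd8a and Cd8b1) were followed in mouse liver. These 10 genes were taken by symbol from the 17656 genes listed for every library. The series holds 14 liver RNA-seq libraries, 1 per mouse, from 8-week-old mice, and gives TPM values, transcript abundances that are scaled for gene length and sum to 1000000 in a library. Livers were taken 8 h after saline or after 8 mg/kg of concanavalin A (ConA), a plant lectin that activates T cells and is given by the tail vein to provoke T cell-mediated hepatitis. The groups were wild type with saline (WT saline, n = 3 mice), Ythdf1 knockout with saline (KO saline, n = 3), wild type with ConA (WT ConA, n = 4) and Ythdf1 knockout with ConA (KO ConA, n = 4). Per the study's methods all mice had the C57BL/6 background. The knocked-out gene, Ythdf1, encodes a reader of the m6A mark on RNA.

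IFN-gamma is made chiefly by activated T cells and NK cells. It binds a receptor of the IFNGR1 and IFNGR2 chains, which signals through the kinases JAK1 and JAK2 to genes such as Irf1, Cxcl9 and Socs1. Cytotoxic lymphocytes carry granzymes and perforin in granules and release them onto target cells. In ConA hepatitis, IFN-gamma is a known mediator of liver damage, and resting liver holds few of these lymphocytes among its hepatocytes.

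Ythdf1 itself was listed at between 12.03 and 13.92 TPM in WT saline, 18.44 and 20.77 in KO saline, 18.74 and 25.63 in WT ConA, and 15.54 and 26.17 in KO ConA. It was thus not lower in the libraries labelled Ythdf1 knockout. A value for the whole gene does not show whether the protein is made, and the genotype of each library rests on its label; "KO" below stands for the libraries labelled so. As liver markers, 5 hepatocyte genes summed to between 102848 and 130883 TPM in the saline livers and between 49947 and 77542 TPM in the ConA livers, and all 5 were called lower after ConA in both genotypes. Since TPM sum to a fixed total, a value is a share of the library's RNA, and the part of this change in the results below was not tested. The libraries WT saline 2 and 3 lay much closer together than any other pair: for the 100 most variable genes of the KO saline livers, their median absolute difference was 0.116 on the log2(TPM + 1) scale, against 0.244 to 1.81 in the other pairs of a group. The limma fits against WT saline were therefore also computed with this pair averaged to 1 mouse. The permutation tests below were not, and count both libraries as separate mice. The libraries that stood apart in overall scale were WT ConA 3 and KO ConA 3, with median-ratio factors of 0.791 and 0.847 against 0.966 to 1.195 in the other 12. Read depth is not given, so no counting error can be attached to a TPM value. In whole liver, fewer cells of a type and less RNA per cell cannot be told apart.

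The 4 members with promoters shown are the cytokine, both granzymes and Nkg7, since these were among the genes that rose together after ConA. Each line gives the 250 bases before the RefSeq start, 5′ to 3′ on the gene's strand, in the GRCm38.p6 build. Capitals mark matches to the searched motifs.
Ifng: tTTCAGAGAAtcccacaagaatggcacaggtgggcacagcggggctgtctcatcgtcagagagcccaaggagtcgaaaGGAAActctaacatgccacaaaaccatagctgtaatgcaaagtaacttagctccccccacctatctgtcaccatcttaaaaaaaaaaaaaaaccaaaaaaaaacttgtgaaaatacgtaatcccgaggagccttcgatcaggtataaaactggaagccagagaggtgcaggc
Gzma: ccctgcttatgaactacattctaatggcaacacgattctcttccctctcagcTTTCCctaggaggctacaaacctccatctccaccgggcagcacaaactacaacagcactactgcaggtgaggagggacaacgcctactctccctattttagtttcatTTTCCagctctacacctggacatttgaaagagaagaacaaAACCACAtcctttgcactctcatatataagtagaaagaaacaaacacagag
Gzmb: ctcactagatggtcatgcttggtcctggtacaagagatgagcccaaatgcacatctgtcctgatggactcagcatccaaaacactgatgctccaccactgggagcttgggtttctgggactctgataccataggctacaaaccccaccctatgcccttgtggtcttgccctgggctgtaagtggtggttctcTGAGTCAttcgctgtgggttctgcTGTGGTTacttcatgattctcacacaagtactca
Nkg7: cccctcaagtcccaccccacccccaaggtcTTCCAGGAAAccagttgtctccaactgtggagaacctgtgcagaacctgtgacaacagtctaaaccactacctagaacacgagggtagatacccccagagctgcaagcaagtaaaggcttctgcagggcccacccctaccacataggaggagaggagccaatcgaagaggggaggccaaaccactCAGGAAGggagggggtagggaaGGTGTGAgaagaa
They lie at chr10:118440796-118441045 (plus strand), chr13:113100982-113101231 (minus), chr14:56262335-56262584 (minus) and chr7:43436888-43437137 (plus). RefSeq promoters were matched for 8 of the 10 members, leaving Il2rb and Cd8b1. Motifs were searched on both strands. The GAS letters TTCNNNGAA, which stood in 7.02% of all 32851 promoters of the same length, were found in Ifng, 241 to 249 bases before the start, and in Nkg7, where they overlap an NFAT core. The NFAT core GGAAA, present in 55.6% of promoters, was found in 6 members (Ifng, Gzma, Nkg7, Il2ra, Cd3e and Cd8a). Gzmb held the AP-1 letters TGANTCA, which 6.75% of promoters hold, at 52 to 58 bases, and the RUNX letters TGTGGTT at 28 to 34 bases. RUNX letters stood in 4.4% of promoters and also in Gzma. The T-box core GGTGTGA, at 3.33% of promoters, was in Nkg7 alone among the 8. The ETS letters CAGGAAG (10.8% of promoters) were in Prf1, Nkg7 and Cd3e, the letters TGACGT (6.47%) in Prf1 and Cd3e, and the full CRE TGACGTCA (1.55%), which contains them, in none of the 8. These matches describe letters only.

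Ifng lies at chr10:118441046-118445894 on the plus strand (Entrez gene 15978). In the WT saline livers it was listed at 0.14, 0.00 and 0.07 TPM, and in KO saline at 0.07, 0.07 and 0.00 TPM. After ConA it reached 3.86, 2.46, 1.63 and 1.01 TPM in WT and 6.05, 6.28, 12.14 and 5.02 TPM in KO. Both saline groups were thus near 0, taken as every library under 0.5 TPM, and every ConA liver lay above every saline liver. In order of level the saline groups came first without differing beyond their spread, then WT ConA (2.24 ± 1.23 TPM, SD, n = 4) and then KO ConA (7.37 ± 3.23, n = 4), and the ConA groups did not overlap. Of the 50-base stretches of the Ifng transcripts, 86.5% occur in no other annotated gene; the rest are shared with Gm49751, which overlaps Ifng on the same strand and is not listed in the files.

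Among the granule genes, Gzmb, whose granzyme B cleaves caspases in target cells, stood at 0.61, 0.05 and 0.22 TPM in WT saline and at 0.39, 0.22 and 0.57 TPM in KO saline. It had 9.93, 4.28, 2.88 and 4.54 TPM in WT ConA and 11.07, 8.66, 9.24 and 4.68 TPM in KO ConA. Every ConA value exceeded every saline value, while the ConA groups overlapped. Gzma, which encodes the tryptase granzyme A, had 0.19, 0.67 and 0.58 TPM in WT saline, 0.39, 0.09 and 0.45 in KO saline, 3.99, 3.07, 1.01 and 3.95 in WT ConA and 5.66, 5.78, 3.96 and 2.34 in KO ConA. Nkg7, a membrane protein of the granules, was the member listed highest in a saline liver, at 1.05, 0.42 and 0.42 TPM in WT and 1.06, 0.72 and 0.69 in KO. ConA livers had 4.45, 1.72, 1.1 and 2.15 TPM of it in WT and 4.39, 4.51, 2.81 and 2.04 in KO, again without overlap with saline. Prf1, the pore-forming perforin, stayed low throughout. It was listed at 0.00, 0.06 and 0.06 TPM in WT saline, 0.04, 0.00 and 0.06 in KO saline, 0.53, 0.27, 0.27 and 0.27 in WT ConA and 0.72, 0.67, 0.27 and 0.18 in KO ConA. Perforin RNA thus kept under 1 TPM where both granzymes were above it in every ConA liver.

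Il2ra encodes CD25, the chain that makes the IL-2 receptor a high-affinity one on activated T cells. Its values were 0.02, 0.06 and 0.15 TPM in WT saline, 0.14, 0.10 and 0.10 in KO saline, 0.69, 0.39, 0.38 and 0.39 in WT ConA and 1.06, 0.96, 0.89 and 0.56 in KO ConA. Both ConA groups lay above both saline groups, and 3 of the 4 KO ConA livers lay above all WT ConA livers. Il2rb, the signalling chain shared with the IL-15 receptor, had 0.25, 0.33 and 0.37 TPM in WT saline, 0.72, 0.68 and 0.56 in KO saline, 1.22, 0.77, 0.56 and 0.72 in WT ConA and 1.87, 1.58, 1.3 and 0.44 in KO ConA. It was the only member whose saline groups did not overlap, with the 3 KO saline livers above the 3 WT saline livers. IL-2 itself (Il2) was listed at 0 in all 6 saline livers and reached at most 0.35 TPM after ConA.

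The T cell chains differed from each other. Cd3e, an invariant signalling chain of the T cell receptor complex, had 0.23, 0.16 and 0.23 TPM in WT saline, 0.29, 0.39 and 0.21 in KO saline, 0.60, 0.22, 0.25 and 0.17 in WT ConA and 0.57, 0.33, 0.30 and 0.22 in KO ConA, so that all 4 groups overlapped. Its locus overlaps the antisense gene Gm48719, and 93.8% of its 50-base stretches occur in no other gene. Cd8a and Cd8b1, the chains of the CD8 co-receptor of cytotoxic T cells, lie side by side at chr6:71373427-71379171 and chr6:71322788-71337492, 35932 bases apart with no protein-coding gene between them. Cd8a was listed at 0.21, 0.06 and 0.29 TPM in WT saline, 0.19, 0.15 and 0.17 in KO saline, 0.61, 0.33, 0.18 and 0.36 in WT ConA and 0.76, 0.47, 0.49 and 0.28 in KO ConA. Cd8b1 had 0.65, 0.56 and 0.25 TPM in WT saline, 0.28, 0.18 and 0.64 in KO saline, 1.1, 2.19, 1.29 and 2.70 in WT ConA and 2.94, 2.43, 2.80 and 2.77 in KO ConA. On the TPM scale Cd8b1 exceeded its partner in 13 of 14 livers, and its ConA groups lay clear of saline. Of the Cd8b1 stretches 93.7% occur in no other gene. Cd4, the co-receptor of helper T cells, was under 0.5 TPM in every liver.

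**Figure D1:**
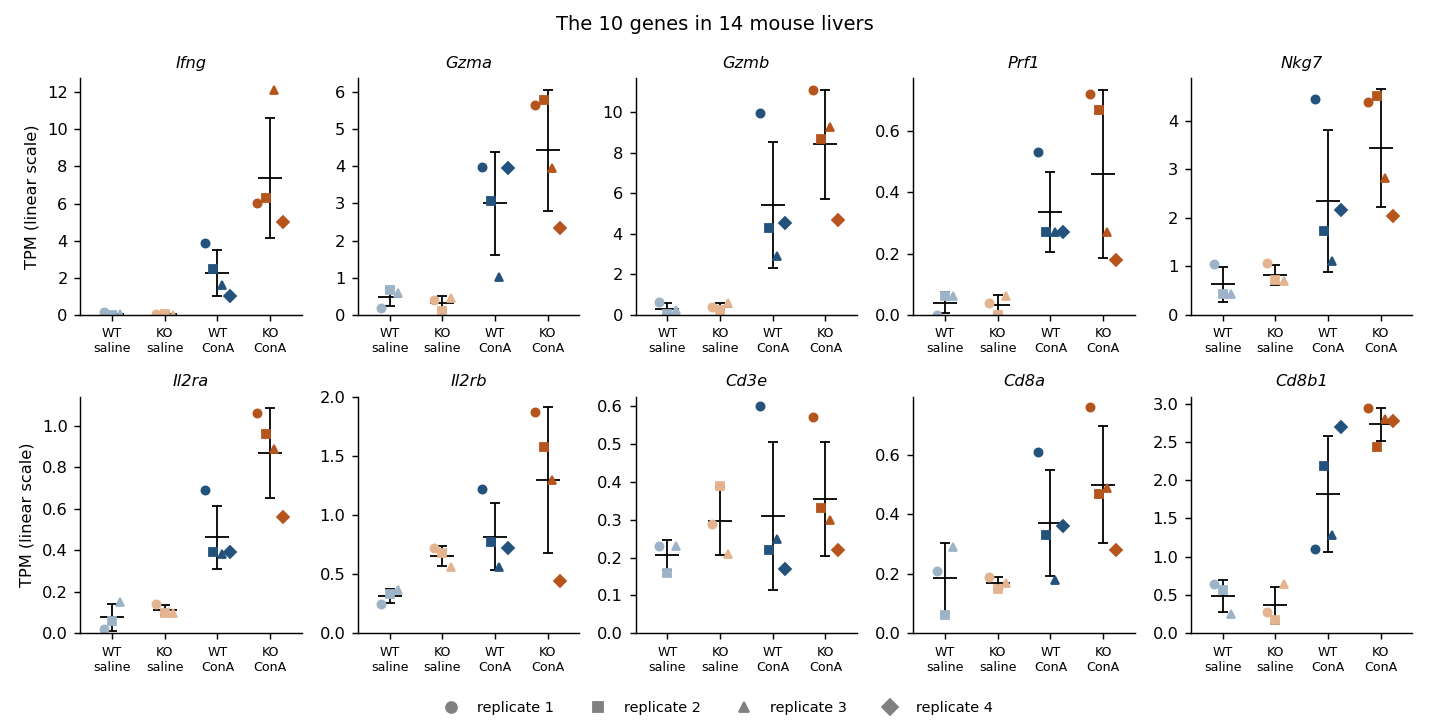
TPM on a linear axis for each of the 10 genes, 1 symbol per liver, with the group mean and SD as black bars; symbols give the replicate number, which has no meaning across groups. Ifng reaches at most 3.86 TPM in WT ConA livers and at least 5.02 TPM in KO ConA livers, while Cd3e does not separate the groups.

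By level, then, Ifng, Prf1, Il2ra, Cd3e and Cd8a were near 0 in all 6 saline livers, and the other 5 members stayed under 1.1 TPM there. Prf1, Cd3e and Cd8a remained under 1 TPM in all 14 livers.

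The response of wild-type liver to ConA was compared first. Ifng, Gzma, Gzmb, Nkg7 and Cd8b1 reached the expression filter used with limma, a TPM of at least 1 in as many livers as the smaller of the groups holds, and all 5 were called higher at an adjusted p under 0.05. The background was high: 53.0% of the 10768 genes tested were called in this comparison, and 22.0% were called higher. Passing the filter required a high ConA value, so this count is a description of the members. Over all 10 members, 8 had groups that did not overlap, all higher after ConA. The share of all genes with separate groups was not computed, so this count describes the members only. The median difference of the members was 0.674 on the log2(TPM + 1) scale against -0.072 over all tested genes. The log2 fold change was 2.22 for Gzmb (SE 0.319, adjusted p = 0.000358 by limma), 1.52 for Ifng (SE 0.265, adjusted p = 0.00112), 1.36 for Gzma (SE 0.309, adjusted p = 0.00481), 0.97 for Nkg7 (SE 0.299, adjusted p = 0.0214) and 0.90 for Cd8b1 (SE 0.217, adjusted p = 0.00687). These changes are on the log2(TPM + 1) scale and understate the change of genes near 0. Exact two-sided permutation tests of the members below the filter gave p = 0.0571 for Prf1, Il2ra and Il2rb, the smallest value that 4 against 3 mice allows, p = 0.4 for Cd3e and p = 0.171 for Cd8a. With WT saline 2 and 3 averaged, or without either of them, Nkg7 was not called (log2 fold change 0.88, adjusted p = 0.0774 averaged, 0.0761 and 0.077 without replicate 2 or 3), and the other 4 were.

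In KO liver the same 5 genes were called higher out of 6 tested, against a background of 64.6% of 10988 genes called and 33.9% called higher. As in WT, passing the filter required high ConA values, so this count describes the members only. The log2 fold change was 2.93 for Ifng (SE 0.243, adjusted p = 2.08e-06 by limma), 2.71 for Gzmb (SE 0.243, adjusted p = 3.74e-06), 2.01 for Gzma (SE 0.246, adjusted p = 3.69e-05), 1.46 for Cd8b1 (SE 0.158, adjusted p = 1.43e-05) and 1.25 for Nkg7 (SE 0.221, adjusted p = 0.000519). Il2rb did not pass at 0.43 (SE 0.219, adjusted p = 0.106), with KO ConA 4 at 0.44 TPM below all KO saline livers. Without that library its fold change was 0.64 and it was called (adjusted p = 0.00458). For Prf1, Il2ra and Cd8a the groups did not overlap and the exact permutation p was 0.0571, and Cd3e gave p = 0.629. Again 8 of the 10 members had separate groups, all higher after ConA, and the share of all genes with separate groups was not computed. The median difference of the members was 0.992 against 0.069 over all tested genes.

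Whether the KO livers differed from WT after ConA was tested directly between the 4 KO ConA and 4 WT ConA libraries. All 10 group means were higher in KO, by 1.15-fold for Cd3e to 3.29-fold for Ifng in mean TPM. The share of all genes with a higher mean in KO was not computed. The median difference of the members was 0.396 on the log2(TPM + 1) scale against 0.055 over all tested genes. Limma called none of the 6 members tested, against a background of 0.428% of 10519 genes called. These were 45 genes, 80.0% of them higher in KO; with rescaled libraries 25 were called and 48% were higher. At the level of single tests, 1753 genes had an unadjusted p under 0.05, among them Ifng and Cd8b1. Ifng came closest, with a log2 fold change of 1.38 (SE 0.305, adjusted p = 0.0674) and no overlap between the groups. The adjusted p ranged from 0.0092 to 0.15 over the alternatives. Only the fit that pools the spread of all 14 libraries, and so includes the saline groups near 0, passed the threshold. Gzmb differed by 0.61 (SE 0.321, adjusted p = 0.372), Gzma by 0.47 (SE 0.32, adjusted p = 0.51), Nkg7 by 0.45 (SE 0.296, adjusted p = 0.49), Cd8b1 by 0.44 (SE 0.197, adjusted p = 0.289) and Il2rb by 0.30 (SE 0.218, adjusted p = 0.536). Exact permutation tests gave p = 0.0571 for Il2ra, 0.343 for Cd8a, 0.429 for Prf1 and 0.6 for Cd3e, where 4 against 4 mice allow 0.0286.

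**Figure D2:**
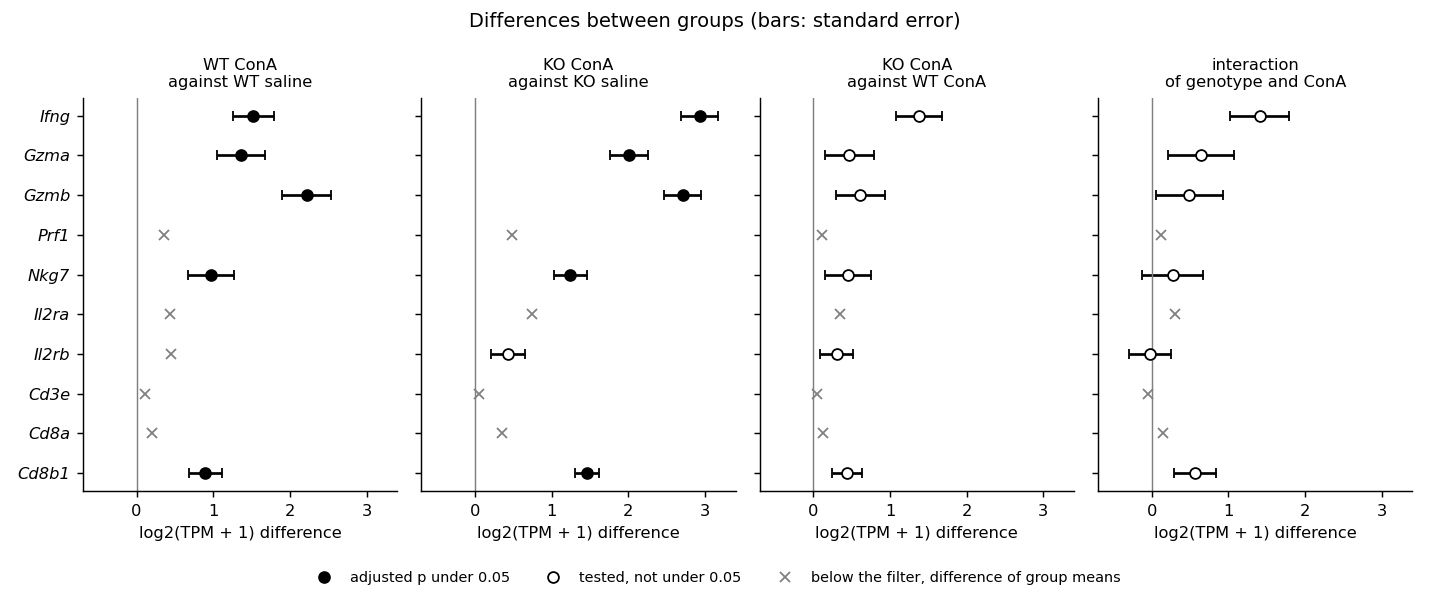
Difference of log2(TPM + 1) for each gene in 4 comparisons; filled circles have an adjusted p under 0.05 in limma, open circles do not, bars are standard errors, and grey crosses are differences of group means for genes below the filter. The filled circles are Ifng, Gzma, Gzmb, Nkg7 and Cd8b1 after ConA in each genotype, and no member is filled between KO ConA and WT ConA or in the interaction.

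The interaction term asks whether the change after ConA itself differed between the genotypes. Of the 6 members tested none was called, where 4.78% of 11327 genes were. An unadjusted p under 0.05 was given to 2862 genes. The median of all genes was 0.14 here and 0.028 with rescaled libraries. Ifng had a difference of 1.41 log2 units (SE 0.388, adjusted p = 0.0503 by limma), the other 5 between -0.02 for Il2rb and 0.64 for Gzma, with adjusted p from 0.205 to 0.963. The Ifng value lay at the threshold: its adjusted p was 0.0273 without WT ConA 1, 0.0487 without KO ConA 3 and 0.123 with the WT saline pair averaged.

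Before ConA no member reached the filter in KO saline against WT saline, where 19.2% of 10459 genes were called, 6.3% higher and 12.9% lower. Of these calls 32.8% were higher in KO. With rescaled libraries 1515 of 10418 genes were called, and 49.1% of the calls were higher. Ifng, Prf1, Il2ra, Cd3e and Cd8a were under 0.5 TPM in all 6 livers and were not tested. Il2rb was higher in 3 of 3 KO saline livers by 0.328 log2 units, with an exact permutation p of 0.1, the smallest that 3 against 3 mice allows. The remaining 4 gave p from 0.5 to 0.7, and 5 of the 10 means were higher in KO.

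Single mice deviated in many members at once. WT ConA 1 had the highest value of its group in 9 of the 10 members, Cd8b1 being the exception. WT ConA 3 was lowest in 6. In the KO ConA group, replicate 1 was highest in 7 and replicate 4 lowest in 9, again with Cd8b1 as the exception. The same 2 mice stood at the ends for other cells of the liver. Sinusoidal endothelial markers (5 genes) summed to 28.33 TPM in WT ConA 1 and to 11.11 to 11.45 in the other WT ConA livers, and in KO ConA to 12.93 in replicate 4 and to 22.09 to 34.62 in the rest.

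Markers of lymphocytes and neutrophils were summed per liver. Most T and NK cell markers were below the filter. The only ones called after ConA were Cd8b1, Gzma and Nkg7, which are members, and none was called between the ConA groups. The T cell markers, 7 of 7 listed and 3 of them members, summed to between 1.34 and 2.06 TPM in WT saline, 2.19 and 2.77 in KO saline, 2.53 and 4.22 in WT ConA, and 4.61 and 7.82 in KO ConA. The 4 that are no members (Cd3d, Cd3g, Cd247 and Cd4) summed to 0.57 to 0.97 TPM in WT saline livers, 1.43 to 2.01 in KO saline livers, 0.81 to 1.91 in WT ConA livers and 1.34 to 3.55 in KO ConA livers. Without the members, the T cell markers thus overlapped between saline and ConA in both genotypes and between the ConA groups, while the saline groups did not overlap. Ifng TPM divided by this sum was 2.02, 1.88, 2.01 and 1.06 in WT ConA and 1.70, 2.11, 6.46 and 3.75 in KO ConA. The ConA groups thus overlapped on this ratio, through the KO ConA value of 1.70 alone. In saline the ratio was at most 0.144. Its divisor sums low values, Cd4 being under 0.5 TPM in every liver, so no error can be given to it. NK cell markers, 3 of 7 being members, summed to between 1.54 and 2.14 TPM in WT saline, 1.92 and 2.59 in KO saline, 2.82 and 9.69 in WT ConA, and 5.22 and 12.11 in KO ConA, while the NK receptors Ncr1 and Klrb1c were under 0.5 TPM in every liver. Neutrophil markers (7 of 7 listed) summed to 5.39 to 11.13 TPM in the saline livers, then between 317.58 and 557.11 in WT ConA, and between 411.33 and 947.62 in KO ConA. B cell markers summed to 0.44 to 4.24 TPM over all livers, with Ms4a1 and Pax5 under 0.5 TPM in each. Dendritic cell markers summed to between 2.73 and 3.38 TPM in saline livers and between 1.05 and 2.01 after ConA. Of these 6 markers only 1 passed the filter after ConA in each genotype, and it was not called. Flt3, Siglech and Itgae stayed under 0.5 TPM in every liver. The part of these cell types in the results above was not tested.

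**Figure D3:**
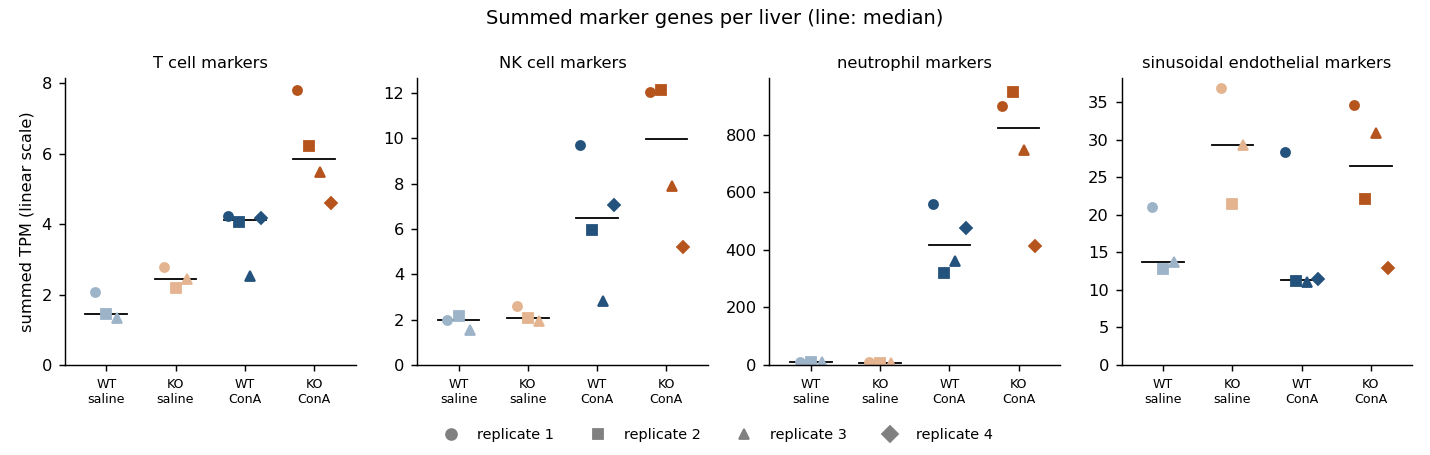
Summed TPM of 4 sets of marker genes per liver on linear axes, with the group median as a line. T cell markers sum to at most 4.22 TPM in WT ConA livers and to at least 4.61 TPM in KO ConA livers. They include the members Cd3e, Cd8a and Cd8b1. The sums of the 4 T cell markers that are no members overlap after ConA (highest WT liver 1.91 TPM, lowest KO liver 1.34 TPM). Neutrophil markers rise from at most 11.13 TPM to at least 317.58 TPM after ConA.

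Genes that act with the members were read from 5 lists. Of the IFN-gamma pathway, 24 genes are listed and 22 were tested after ConA. In WT, 19 were called higher and none lower, with a median log2 fold change of 3.36, and in KO all 22 were called higher, with a median of 3.97. Over all tested genes, 22.0% in WT and 33.9% in KO were called higher, and the medians were -0.072 and 0.069. The chemokine Cxcl9 stood at 7.03 to 10.28 TPM in WT saline livers and at 2487 to 4080 TPM in WT ConA livers, a log2 fold change of 8.36 (SE 0.218, adjusted p = 3.38e-08 by limma). Cxcl10 rose by 6.82, the feedback inhibitor Socs1 by 6.05, the nitric oxide synthase Nos2 by 5.15 and the transcription factor Irf1 by 3.42 log2 units in WT. Between KO ConA and WT ConA none of the 22 was called, and the median was 0.35 against 0.055 over all genes. The receptor chain Ifngr1 ranged over 9.9 to 20.01 TPM in WT ConA livers and over 19.67 to 24.48 in KO ConA livers (log2 fold change 0.51, SE 0.201, adjusted p = 0.237), and the kinase Jak2 had 3.61 to 7.55 and 8.81 to 11.09 TPM (0.65, SE 0.211, adjusted p = 0.163).

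In saline livers 3 of the 20 tested genes of this pathway were called lower in KO than in WT, where 12.9% of all genes were, namely Ifngr2, Irf1 and Irgm1, a GTPase against intracellular pathogens. Ifngr2 had 12.07, 12.59 and 13 TPM in WT saline and 5.89, 6.15 and 8.40 in KO saline (log2 fold change -0.81, SE 0.128, adjusted p = 0.0155 by limma). Irf1 had 27.85, 24.39 and 22.68 TPM in WT and 15.28, 17.95 and 15.70 in KO (-0.58, SE 0.106, adjusted p = 0.0193). After ConA they reached 16.76 to 24.16 and 213.02 to 352.04 TPM in the WT livers, against 25.07 to 29.68 and 365.89 to 425.41 TPM in the KO livers. The interaction was called for both, at 1.14 (SE 0.208, adjusted p = 0.0185) for Ifngr2 and 1.06 (SE 0.237, adjusted p = 0.0307) for Irf1. These were 2 of the 22 genes of this pathway tested there, where 4.78% of all 11327 genes were called. The other lists, with 4, 7, 8 and 12 genes tested, had no call. With the WT saline pair averaged, neither Ifngr2 nor Irf1 was called in either test (interaction adjusted p = 0.0747 and 0.0955, saline adjusted p = 0.0825 for both). The interaction calls were also lost without WT saline 2 or 3 or KO saline 1 or 2 (adjusted p from 0.0519 to 0.0957), and for Irf1 without KO ConA 2 or 4 (0.056 and 0.0573).

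**Figure D4:**
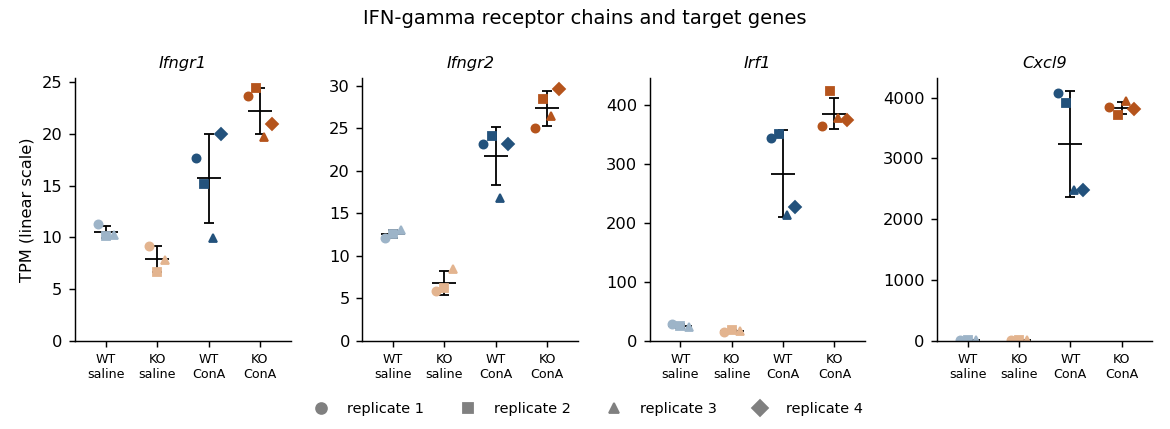
TPM on linear axes for the receptor chains Ifngr1 and Ifngr2 and the targets Irf1 and Cxcl9, 1 symbol per liver, with mean and SD. Ifngr2 lies at or above 12.07 TPM in WT saline livers and at or below 8.4 TPM in KO saline livers.

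Cytokines and receptors that induce Ifng were mostly too low to test, with 4 of 13 genes passing the filter. Il18, an inducer of IFN-gamma in T and NK cells, fell from 24.04 to 25.21 TPM in WT saline to 5.26 to 7.50 TPM in WT ConA (log2 fold change -1.82, SE 0.159, adjusted p = 1.89e-05 by limma), and in KO by 1.47 on the log2 scale. The kinase Tyk2 of the IL-12 receptor was not called (-0.04 in WT, -0.33 in KO). The IL-18 receptor chain Il18r1 rose by 1.08 in WT and 1.05 in KO, and Il12rb1 by 0.87 in WT (adjusted p = 0.00273), with 0.21 in KO (adjusted p = 0.325). In the IL-2 and IL-15 axis, 3 genes were called higher and 2 lower of 7 tested in WT, and 4 higher and 1 lower in KO, where 53.0% and 64.6% of all genes were called. The common gamma chain Il2rg rose by 1.32 in WT and 1.66 in KO, the kinase Jak3 by 1.33 and 1.2 and the feedback inhibitor Cish by 1.04 and 1.47, and Il15 fell by 1.49 in WT and by 0.85 in KO. None of these lists had a gene called between the ConA groups, and the only call among their genes in saline was Il18, 0.31 log2 units lower in KO (adjusted p = 0.0398), which was lost in several alternatives.

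Other T cell genes went in both directions. In WT 1 of 4 tested genes was called higher, the early activation marker Cd69 (0.10 to 0.26 TPM in saline, 0.49 to 1.38 after ConA, log2 fold change 0.80, adjusted p = 0.00432 by limma). Called lower were the kinase Zap70 (-1.12, adjusted p = 0.00503), the transcription factor Tcf7 (-0.73, adjusted p = 0.00502) and the inhibitory receptor Tigit. In KO 3 of 8 were called higher (Cd69, Ccr7 and Lat) and 2 lower (Zap70 and Tcf7, the latter not called without KO saline 1 or 2). Zap70 stood at 8.72 to 16.71 TPM in saline livers, far above the Cd3e level of at most 0.39 TPM in the same livers. Among other NK and cytotoxic genes, 6 of 12 were called higher and 2 lower in WT, and 8 higher and 1 lower in KO. Of all genes 22.0% in WT and 33.9% in KO were called higher, and 31.0% and 30.7% lower. The call of Serpinb6b in WT (0.69, adjusted p = 0.0499 by limma) was lost in 8 alternatives, with adjusted p up to 0.188. Stx11, a syntaxin of granule release, rose by 1.004 in WT and 1.605 in KO, and the lysosomal membrane protein Lamp1 fell by 0.67 in WT (adjusted p = 0.00204) and had -0.26 in KO (adjusted p = 0.129). The granule proteoglycan Srgn rose from 3.09 to 4.30 TPM in WT saline to 34.23 to 72.47 in WT ConA (log2 fold change 3.41, SE 0.231, adjusted p = 4.58e-06), and from 3.76 to 7.26 to 37.57 to 99.61 TPM in KO. Xcl1, a chemokine of activated CD8 T and NK cells, was listed at 0 in the 3 WT saline livers and at 2.5 to 7.25 TPM in WT ConA. Serpinb9, the inhibitor that shields cells from granzyme B, was called in KO (1.41, adjusted p = 8.76e-05) and not in WT (0.33, adjusted p = 0.299). In WT it was called without WT ConA 3 (0.58, adjusted p = 0.00313), and its interaction was not called (adjusted p = 0.0724; called without WT ConA 1, adjusted p = 0.0452). None of the 7 T cell and 12 cytotoxic genes tested between KO ConA and WT ConA was called, with medians of 0.168 and 0.409.

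The genes whose pattern over the 14 livers was most like that of Ifng were found by scaling log2(TPM + 1) of each gene from 0 in its lowest to 1 in its highest liver. The mean absolute difference from Ifng was 0.026 for Ptgs2, which encodes cyclooxygenase-2, 0.041 for the carbonic anhydrase Car13, 0.044 for the protease Adamts4, 0.052 for the retinal-oxidising enzyme Aldh1a3 and 0.054 for the endothelial adhesion molecule Sele. The median over 11326 genes was 0.407, and the closest member was Il2ra at 0.111. Ptgs2 had at most 0.04 TPM in saline livers, 1.52, 1.0, 0.54 and 0.39 in WT ConA and 1.81, 2.04, 3.16 and 1.43 in KO ConA, and Sele 1.31, 0.78, 0.26 and 0.72 and then 2.57, 2.51, 3.34 and 1.73 TPM. Like Ifng, all 5 were highest in KO ConA 3, which their choice by likeness to Ifng in each liver favours. For Gzmb the closest genes were Procr (0.042), Glipr2 (0.044), Il4ra (0.047), Pfkp (0.047) and Psat1 (0.050), with a median of 0.384 over all genes and Gzma (0.101) and Nkg7 (0.102) as the closest members. These orders rest on 14 libraries in 4 groups, and any gene near 0 in saline and higher in KO ConA scores well.

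**Figure D5:**
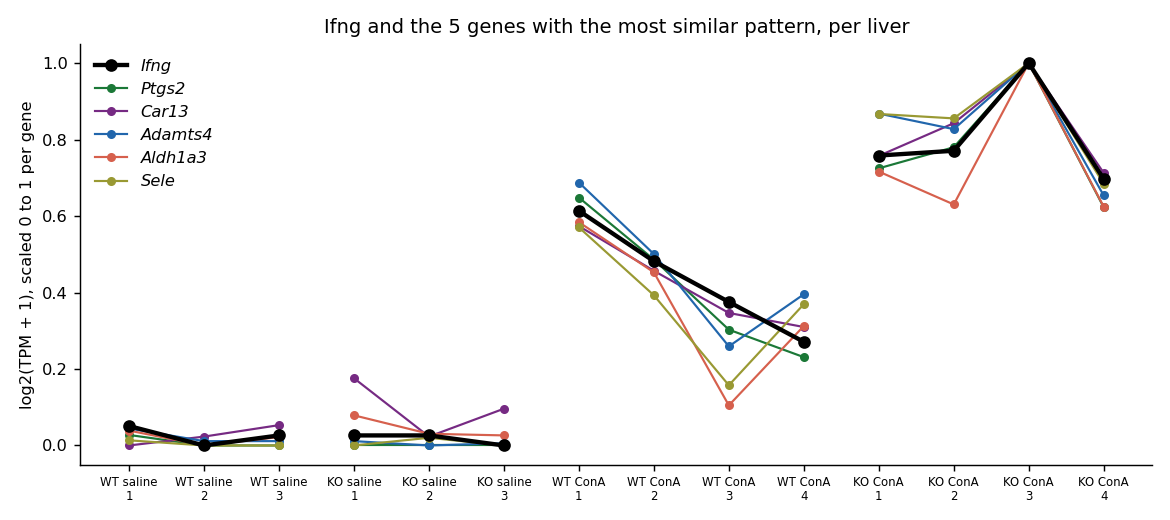
log2(TPM + 1) scaled from 0 to 1 within each gene for Ifng (thick black line) and the 5 genes nearest to it, in the 14 livers; lines join livers of a group for reading only. All 6 genes lie near 0 in the saline livers and reach 1 in KO ConA 3.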

How the data were processed

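RNA was measured in 14 mouse livers, 1 library per mouse, by single-end sequencing of 50 bases on a BGISEQ-500. The deposited values are TPM per gene, 1 file per mouse, for 17656 genes with 2 decimals. The submitters' processing notes name Bowtie2, RSEM 1.3.1 and GRCm38.p6, whereas the study's methods name STAR, HTSeq and edgeR, so the steps by which the authors made these TPM are not settled. Whether strand was used in counting is not given in the sources used here. Depth in reads is unknown.

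Groups came from the labels. TPM do not allow the count test the study used, so limma 3.58.1 (R 4.3.3, lmFit and eBayes with trend) was fitted to log2(TPM + 1) for every gene at 1 TPM or above in a number of libraries equal to the size of the smaller group. P-values were adjusted by Benjamini-Hochberg over all genes tested and called under 0.05. A comparison of 2 groups was fitted on those groups alone and the interaction on all 14 libraries. Members below the filter were tested singly by exact two-sided permutation over mice, unless all values were under 0.5 TPM. The fit was checked on simulated tables. Nothing in the labels says that mice were handled together, and p-values measure the spread between these mice.

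The members and the gene lists were chosen with earlier results of these data known. Named from each list were the 3 genes with the smallest p in WT ConA against WT saline and in KO ConA against WT ConA, plus Ifngr1, Ifngr2, Irf1, Socs1, Il2, Il2rg, Cd3d, Cd3g, Cd4, Ncr1, Klrb1c and Serpinb9, and the 5 genes most like Ifng and Gzmb. Some genes that the rule names are not reported here. Irgm1, Tigit and Lat were named after their calls were seen. The alternatives changed the pseudocount (0.1) or the filter (0.5 TPM, or none), or used rescaled libraries, robust eBayes, a fit over all libraries, a replicate block, the averaged WT saline pair and each library left out. Gene positions and overlaps are from GENCODE vM21 and promoters from RefSeq, both on GRCm38. Stretches of 50 bases of each member's longest protein-coding transcript were looked up, on both strands, in the transcripts of all other genes.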

Additional observations from a re-analysis of the deposited data

Results flagged for a closer look

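Within the groups of 4, a value was looked at again where its gap to the next was large against the range of its group. The 46 genes have 92 such groups, and 7 held such a value. Groups of genes other than the members with all 4 values under 0.5 TPM were skipped, so fewer than 92 were looked at. Chance gives about 1 in 20 for independent groups, which these are not, since the genes share libraries. In WT ConA replicate 1, Prf1 (0.53 TPM), Il2ra (0.69 TPM), Il15 (1.36 TPM) and Xcl1 (7.25 TPM) each stood above the other 3 livers of the group. In WT ConA replicate 3, Ifngr2 was low (16.76 TPM) and Jak3 high (12.32 TPM). Il15ra was high in WT ConA replicate 4 (42.96 TPM). In the interaction of genotype and ConA, 4.78% of 11327 genes were called. Among them were Ifngr2 (1.136) and Irf1 (1.061), on the log2 scale and with the larger change in KO. Both calls were lost with the WT saline pair averaged (adjusted p = 0.0747 and 0.0955 by limma) and without WT saline 2, WT saline 3, KO saline 1 or KO saline 2.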

How the results depend on the processing

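The called members kept their direction in every alternative, and the Ifng level of KO ConA stayed above that of WT ConA in all, by 1.06 to 1.75 log2 units. Without a filter, all 10 members were tested. Of these, 8 were called in WT ConA and 8 in KO ConA against saline, and 1 (Il2rb) in KO saline against WT saline. The share of all genes called without a filter was not computed, so these counts describe the members only. With all 14 libraries in the fit, 1 member (Ifng) was called between the ConA groups, and with robust eBayes 1 (Ifng) in the interaction. Leaving out 1 library at a time gave 0 to 1 member in the interaction. Of the listed genes, 7 were called between the saline groups, where 19.2% of all genes were. The 5 lists had 20, 3, 7, 3 and 9 genes tested there. The count of 7 became 4 without a filter, 4 with rescaled libraries and 0 with the WT saline pair averaged. It ran from 0 (without WT saline 2 or 3) to 13 (without KO saline 3) when 1 library was left out. In the interaction 2 listed genes were called, where 4.78% of all genes were. This count became 4 with rescaled libraries and 0 with the pair averaged, and ran from 0 to 4. Leaving out the third ConA library of both genotypes, chosen after seeing the data, gave 6, and 0 members between the ConA groups (Ifng 1.06, adjusted p = 0.15).

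Deviations of same-numbered mice correlated from -0.198 to 0.411, highest for the third mice of the ConA groups, and no comparison had every pair over 0.1, so the numbers were not taken as pairs. The replicate block gave 1 member (Ifng, adjusted p = 0.0477) in the interaction, 6 in KO ConA against KO saline, where Il2rb was added (0.64, adjusted p = 0.0045), 5 in WT ConA against WT saline and 0 in the others. Without counts, values under about 0.5 TPM cannot be given an error.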
